A study of Mus musculus with 4 samples.

Results

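The amino acid transporters of the SLC families were followed in rib chondrocytes of mice lacking the histone demethylases Kdm6a and Kdm6b. All genes whose symbol belongs to the families SLC1, SLC3, SLC6, SLC7, SLC36, SLC38 and SLC43 were taken, whatever their values. They were 62 of the 17575 genes listed in the 4 libraries. By family they were 20 genes of SLC6, 15 of SLC7, 11 of SLC38, 7 of SLC1, 4 of SLC36, 3 of SLC43 and 2 of SLC3. One symbol that the rule caught, Slc7a6os, belongs to a neighbour of Slc7a6 that is not a transporter, and it is kept in the counts. Slc43a3 is known as a carrier of nucleobases, and some SLC6 members carry creatine, taurine or betaine.

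Amino acids cross the cell membrane mainly through carriers. SLC1 and SLC38 proteins are sodium-coupled carriers of acidic or small neutral amino acids, SLC36 proteins are coupled to protons, and SLC43 proteins and several SLC7 proteins move large neutral amino acids. SLC3 proteins are heavy chains that bring SLC7 light chains to the membrane, so that Slc3a2 with Slc7a5 forms the carrier of leucine and other large neutral amino acids and Slc3a2 with Slc7a11 the exchanger of cystine for glutamate. Cystine feeds glutathione synthesis. Chondrocytes secrete large amounts of collagen, which is rich in glycine and proline. Several of these genes are known targets of ATF4, the transcription factor of the response to amino acid shortage.

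Rib chondrocytes of C57/Bl6 mice aged 10 days were released with collagenase, plated and profiled by RNA-seq. The knockout group (2 libraries) came from mice with the Col2Cre(Tg) transgene, in which a Cre recombinase under the control of Col2, active in cartilage cells, acts on the floxed alleles Kdm6a(fl/fl) and Kdm6b(fl/fl), and the wild type group (2 libraries) from WT mice. The series text mentions triplicates, whereas the sample list used here holds 2 libraries a group, all of which were analysed. No label ties a library to an animal of its own, so the p-values take in only how these libraries vary, and that variation may be technical.

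Estimated counts summed to 31178248 to 32332044 per library. The 10 chondrocyte markers, Col2a1, Acan and Sox9 among them, were present in every library and together held 56160 and 54100 CPM (a gene's counts per a fixed, large number of counts in its library, with library totals adjusted by edgeR's TMM method) in the knockout libraries and 41350 and 39690 CPM in the wild type libraries. At an edgeR adjusted p under 0.05, 3 of the 10 were higher and 1 lower in knockout, where 3.62% and 5.63% of all tested genes were. Kdm6b measured 51.4 and 46.2 CPM in the knockout libraries and 131 and 118 CPM in the wild type libraries, and Kdm6a measured 28.6 and 31.4 CPM in knockout and 52.6 and 56.9 CPM in wild type. Both were lower in each knockout library than in either wild type library (edgeR adjusted p = 0.00174 for Kdm6b and 0.00489 for Kdm6a). Counts cover the whole gene and not the deleted part alone.

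More transporters were lower than higher in the knockout. Of the 62 genes, 40 had enough counts to be tested, 11 fell, 1 rose and 28 did not pass (edgeR quasi-likelihood test, Benjamini-Hochberg adjusted p under 0.05 over all tested genes). The 11 that fell are 27.5% of the tested members, where 5.63% of all 13773 tested genes fell. The gene that rose, Slc6a15, is 2.5% of the tested members, where 3.62% of all tested genes rose. Called in either direction were 12 members, where 9.25% of all tested genes were. Log2 fold changes are given as knockout minus wild type. They had a median of -0.42 over the tested members and of 0.0044 over all tested genes, and they were negative for 28 of the 40, where 49.4% of all tested genes were negative. At an unadjusted p under 0.05, 16 members were lower, where 15.3% of all tested genes were. Both knockout libraries lay below both wild type libraries for 21 of the 40 and above them for 8, where the shares over all tested genes were 30.7% and 30.9%. Slc3a1 and Slc7a4 passed the filter on low counts through a single group, Slc3a1 through wild type and Slc7a4 through knockout.

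**Figure D1:**
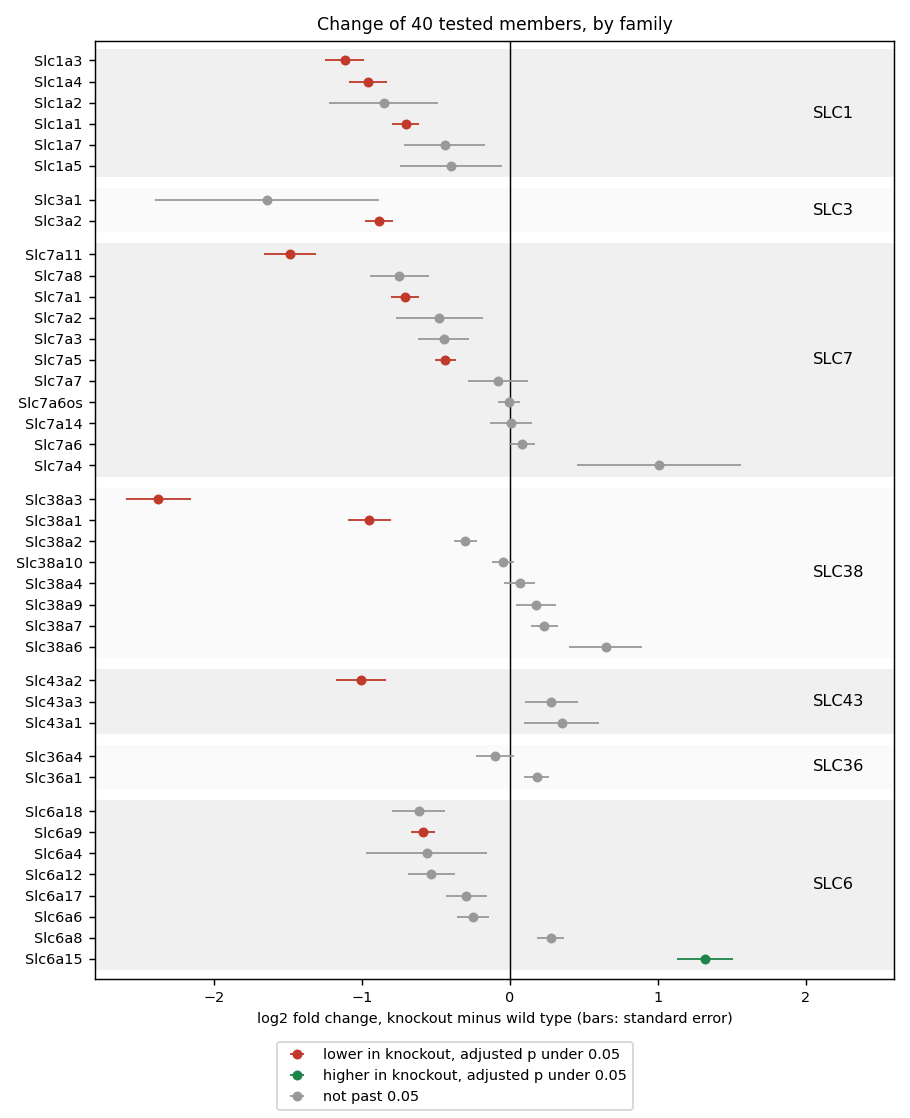
Log2 fold change, knockout minus wild type, of the 40 tested members by family, with standard errors as bars. Red points are the 11 genes lower in knockout and the green point is Slc6a15, the gene that was higher, and all 6 tested SLC1 genes lie left of 0.

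By family, 3 of 6 tested SLC1 genes fell, 1 of 2 in SLC3, 3 of 11 in SLC7, 2 of 8 in SLC38 and 1 of 3 in SLC43. In SLC6, 1 of 8 fell and 1 rose. Neither of the 2 tested SLC36 genes passed. The shares over all tested genes were 5.63% lower and 3.62% higher, beside which families of 2 or 3 tested genes say little. The family medians of the log2 fold change were -0.78 in SLC1, -0.41 in SLC6, -0.44 in SLC7, 0.01 in SLC38, 0.04 in SLC36 and 0.28 in SLC43. All tested genes of SLC1 and SLC3 lay below 0, and each of the other families held genes on both sides of 0. In SLC3 this rests on Slc3a2, since Slc3a1 passed the filter on low counts through wild type alone.

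Markers of other cells that a rib digest can hold were counted in the same libraries. Over all tested genes 5.63% fell, 3.62% rose and 49.4% had a negative log2 fold change. Of 8 tested macrophage markers 7 had a negative log2 fold change and 3 passed, Cd14, Lyz2 and Itgam, and the list of 12 summed to 101 and 114 CPM in knockout and 188 and 197 CPM in wild type. C1qa, C1qb, C1qc and Fcgr1 stayed under 1 CPM in every library, with C1qa and C1qc at 0 in at least 1. Endothelial markers summed to 101 and 86.9 CPM in knockout and 133 and 124 CPM in wild type, with 7 of 8 negative and 3 past the threshold. Fibroblast markers summed to 635 and 886 CPM in knockout and 1047 and 1478 CPM in wild type, with 5 of 8 negative and a median log2 fold change of -0.16. The 2 that passed, Dcn and Col1a2, made up much of that sum, with means of 282 and 128 CPM in knockout and 589 and 289.5 CPM in wild type. The part of these cells in the transporter values was not tested, and in bulk RNA fewer cells of a type and less RNA per cell cannot be told apart.

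Smaller marker lists moved both ways and are read against the same shares over all tested genes. Erythroid markers summed to 9.12 and 9.85 CPM in knockout and 16.4 and 20.2 CPM in wild type (2 of 3 tested fell), with Alas2, Slc4a1 and Ahsp among those under 1 CPM throughout. Osteoblast markers summed to 3.66 and 4.76 CPM in knockout and 8.95 and 8.92 CPM in wild type (1 of 6 fell, Bglap2 at 0 in at least 1 library). Osteoclast markers summed to 48.1 and 58.8 CPM in knockout and 54.1 and 63.1 CPM in wild type, with none of 2 past the threshold and Calcr and Ocstamp at 0 in at least 1 library. Skeletal muscle markers summed to 9.31 and 24.9 CPM in knockout and 12.6 and 12.7 CPM in wild type (1 of 6 rose, Myh8 at 0 in at least 1 library). Nerve markers summed to 49.95 and 43.7 CPM in knockout and 43.5 and 41.5 CPM in wild type (1 of 6 rose and 1 fell). Adipocyte markers summed to 12.1 and 12.4 CPM in knockout and 13.8 and 11.2 CPM in wild type, with the 1 tested gene not past the threshold and Cidec and Retn at 0 in at least 1 library.

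Levels can be set side by side between genes only per length, for which the deposited FPKM (fragments per gene length and library depth) were used. The same 3 genes led in every library, Slc3a2, Slc7a2 and Slc38a2. Slc3a2 measured 128 and 139 FPKM in knockout and 227 and 252 FPKM in wild type. Slc7a2, a carrier of arginine and lysine, measured 88.0 and 175 FPKM in knockout and 163 and 193 FPKM in wild type. Slc38a2, a carrier of small neutral amino acids that is known to be induced by amino acid shortage, measured 101 and 104 FPKM in knockout and 119 and 127 FPKM in wild type. In wild type Slc3a2 stood above Slc7a2 in both libraries, where in knockout their order differed between libraries and the spread of Slc7a2 covers the difference. Below these, Slc7a1, Slc7a5, Slc6a8, Slc43a3 and Slc1a5 took the next 5 places in both wild type libraries. Among these, Slc7a1 stood above Slc7a5 in both wild type libraries, where Slc1a5 varied from 76.2 to 48.0 FPKM between them and overlapped all 4 others. Summed over the 62 genes, FPKM came to 770 and 936 in knockout and 1090 and 1140 in wild type.

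**Figure D2:**
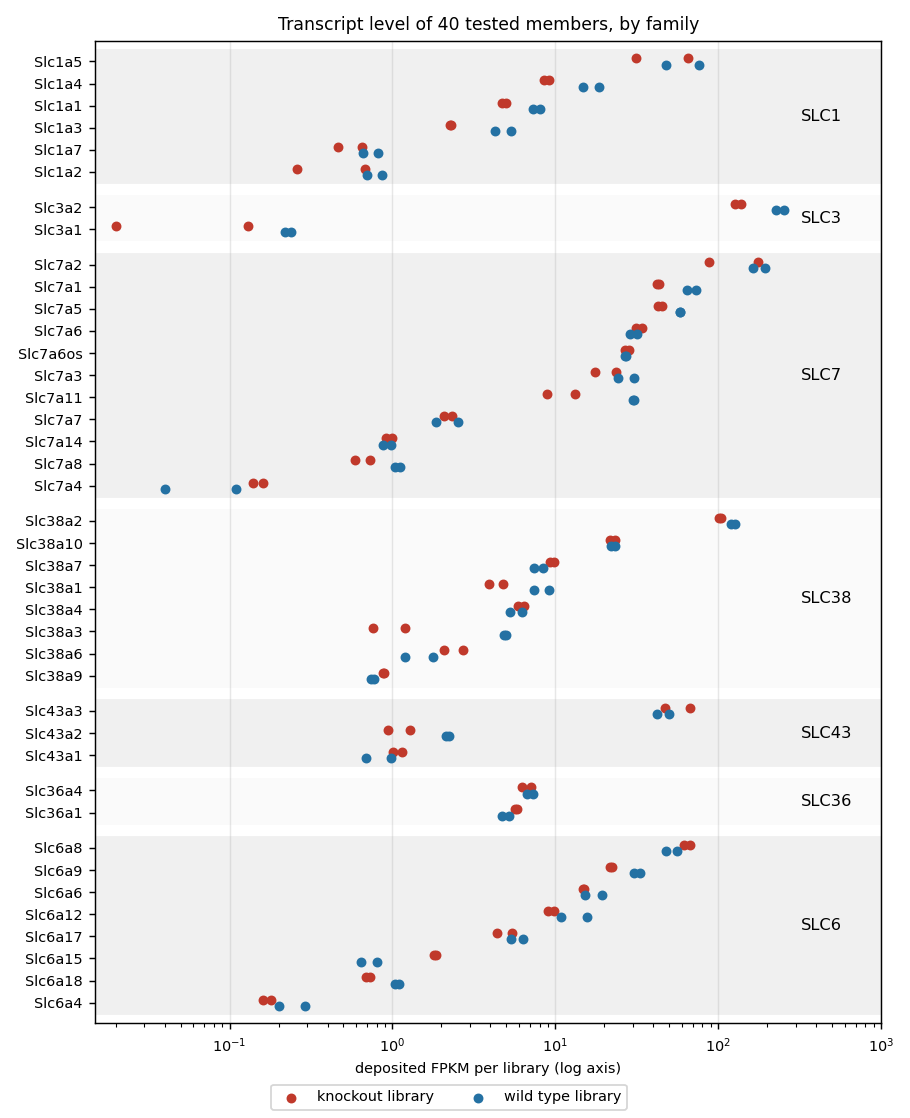
Deposited FPKM of the 40 tested members in each library on a log axis, by family, with knockout libraries in red and wild type libraries in blue. Slc3a2, Slc7a2 and Slc38a2 are the 3 highest genes in every library, and for Slc7a11 and Slc38a3 the red and blue points are well apart.

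Slc3a2, the heavy chain, fell in the knockout together with 2 of its 5 tested light chains. Slc3a2 measured 325 and 355 CPM in the knockout libraries and 585 and 665.8 CPM in the wild type libraries, a 1.84-fold lower level (log2 fold change -0.88, SE 0.093, edgeR adjusted p = 0.00586). Slc7a11, the light chain of the cystine and glutamate exchanger, measured 82.4 and 122.5 CPM in knockout and 286 and 288 CPM in wild type, a 2.80-fold lower level (log2 fold change -1.49, SE 0.17, edgeR adjusted p = 0.00825). The wild type libraries were close to each other for Slc7a11 and the knockout libraries were not, but the groups did not overlap. Slc7a5, the light chain of the leucine carrier, measured 149 and 157 CPM in knockout and 204 and 210 CPM in wild type, a smaller change of -0.44 on the log2 scale (SE 0.072, edgeR adjusted p = 0.0185).

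The other partners of Slc3a2 did not pass. Slc7a6, which exchanges cationic for neutral amino acids, measured 116 and 126 CPM in knockout and 107 and 121 CPM in wild type, with overlapping groups. Slc7a7, a light chain of the same function, measured 4.36 and 4.88 CPM in knockout and 4.11 and 5.66 CPM in wild type, again with overlap. Slc7a8, a carrier of neutral amino acids, measured 2.38 and 2.95 CPM in knockout and 4.24 and 4.71 CPM in wild type without overlap (log2 fold change -0.75, SE 0.20, edgeR adjusted p = 0.067). Slc7a10 had at most 8.34 estimated counts in a library and was not tested. Summed over the 6 light chains, FPKM came to 85.9 and 95.4 in knockout and 120 and 123 in wild type. Slc3a1, the heavy chain known from kidney and gut, was near the limit of detection, with 9.73 and 1.20 estimated counts in knockout and 17.5 and 15.5 in wild type. Slc7a6os measured 42.2 and 40.3 CPM in knockout and 40.7 and 42.0 CPM in wild type.

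Among the 3 carriers of cationic amino acids, which work without a heavy chain, Slc7a1 fell. It measured 310 and 302 CPM in knockout and 460 and 541 CPM in wild type (log2 fold change -0.71, SE 0.095, edgeR adjusted p = 0.0112). Slc7a3 measured 39.9 and 54.1 CPM in knockout and 56.0 and 72.1 CPM in wild type, close but without overlap (edgeR adjusted p = 0.149, not past the threshold). Slc7a2 measured 677 and 1347 CPM in knockout and 1272 and 1542 CPM in wild type, and only knockout replicate 1 lay below the wild type libraries. Its log2 fold change was -0.48 (SE 0.29, edgeR adjusted p = 0.322), -0.06 without knockout replicate 1 and -1.05 without knockout replicate 2, where its edgeR adjusted p was 0.000876 (0.000876 to 0.823 over the 4 leave-out fits). Slc7a14, a lysosomal relative, measured 8.85 and 8.07 CPM in knockout and 7.84 and 8.99 CPM in wild type. Slc7a4 held 15 and 17 estimated counts in knockout and 11 and 4 in wild type.

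**Figure D3:**
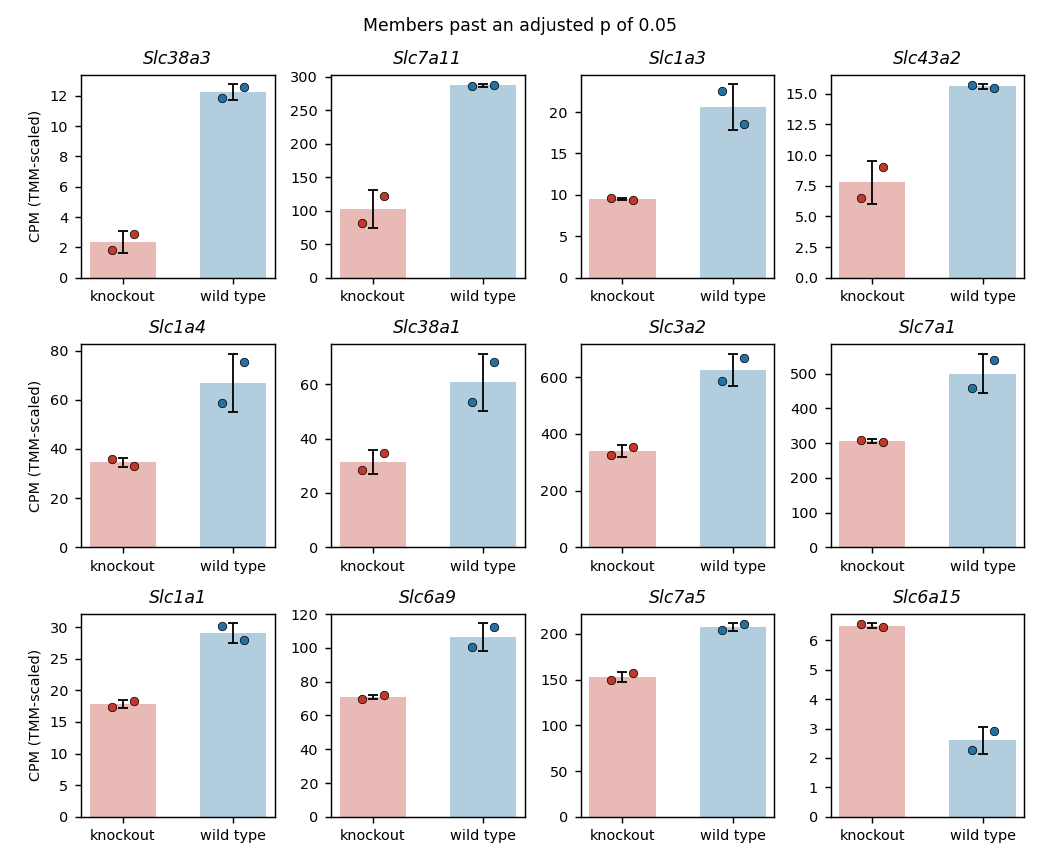
TMM-scaled CPM of the 12 members past an adjusted p of 0.05, with knockout left of wild type in each panel. Bars are means, error bars the SD over 2 libraries and points the libraries, and in no panel do the points of the groups overlap.

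In SLC1 all 6 tested genes had negative log2 fold changes and 3 of them passed. Slc1a3, a glutamate carrier best known from astrocytes, measured 9.58 and 9.42 CPM in knockout and 22.6 and 18.6 CPM in wild type (log2 fold change -1.11, SE 0.13, edgeR adjusted p = 0.00826). Slc1a1, a carrier of glutamate and cysteine, measured 17.4 and 18.4 CPM in knockout and 30.2 and 27.98 CPM in wild type, a 1.63-fold lower level. Slc1a4, an exchanger of alanine, serine and cysteine, measured 35.8 and 33.2 CPM in knockout and 58.5 and 75.3 CPM in wild type, a 1.94-fold lower level. The edgeR adjusted p was 0.0109 for Slc1a1 and 0.011 for Slc1a4, and the SEs of their log2 fold changes were 0.093 and 0.13.

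Slc1a5, an exchanger of glutamine and other neutral amino acids, was the most expressed SLC1 gene and overlapped between groups. It measured 85.0 and 178 CPM in knockout and 211 and 136 CPM in wild type, and replicates differed more than the group means (log2 fold change -0.40, SE 0.35, edgeR adjusted p = 0.48). Without knockout replicate 1 its log2 fold change was 0.04, and without knockout replicate 2 it was -1.02 (edgeR adjusted p = 0.0123, over 4 leave-out fits 0.0123 to 0.961). Slc1a2, another glutamate carrier, measured 1.77 and 4.20 CPM in knockout and 5.12 and 5.66 CPM in wild type. Slc1a7 measured 1.37 and 1.93 CPM in knockout and 2.44 and 2.04 CPM in wild type. Neither passed, although both knockout libraries lay below both wild type libraries for each.

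Slc38a3, a carrier of glutamine known from liver, kidney and brain, had the lowest log2 fold change of the tested members. It measured 1.83 and 2.88 CPM in knockout and 11.9 and 12.6 CPM in wild type, from 60.0 and 94.0 estimated counts in knockout and 375 and 383 in wild type. Its level was 5.18-fold lower (log2 fold change -2.37, SE 0.22, edgeR adjusted p = 0.0038). Per length it was a minor member, at 0.76 and 1.19 FPKM in knockout and 4.83 and 4.99 FPKM in wild type. Slc38a1, another carrier of glutamine and small neutral amino acids, measured 28.4 and 34.6 CPM in knockout and 53.4 and 68.1 CPM in wild type, a 1.93-fold lower level (SE of the log2 fold change 0.15, edgeR adjusted p = 0.0151).

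Slc38a2, far more abundant than both, measured 468 and 480 CPM in knockout and 557 and 610 CPM in wild type. The groups did not overlap, and its log2 fold change was -0.30 (SE 0.078, edgeR adjusted p = 0.0645). It passed in DESeq2, which called 13 members lower, the 11 with Slc38a2 and Slc6a12, where 7.53% of all genes tested by DESeq2 were lower. The lysosomal members of the family had positive log2 fold changes. Slc38a7, which exports glutamine from lysosomes, measured 31.9 and 30.3 CPM in knockout and 27.6 and 25.2 CPM in wild type. Slc38a9, the lysosomal arginine sensor of the mTORC1 pathway, measured 7.87 and 7.76 CPM in knockout and 6.67 and 7.14 CPM in wild type. Neither passed, with edgeR adjusted p-values of 0.143 and 0.411. Slc38a6 measured 6.04 and 7.92 CPM in knockout and 3.51 and 5.40 CPM in wild type without passing. Slc38a10 measured 97.3 and 105 CPM in knockout and 106 and 103 CPM in wild type, and Slc38a4 25.2 and 23.2 CPM in knockout and 24.7 and 21.5 CPM in wild type, both with overlap.

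In SLC43 the carrier of large neutral amino acids Slc43a2 fell, at 6.53 and 9.02 CPM in knockout and 15.7 and 15.5 CPM in wild type (log2 fold change -1.004, SE 0.17, edgeR adjusted p = 0.0205). Its relative Slc43a1 measured 2.84 and 2.55 CPM in knockout and 2.47 and 1.75 CPM in wild type and did not pass. Slc43a3 measured 121 and 174 CPM in knockout and 110 and 133 CPM in wild type. Its groups overlapped, and without knockout replicate 1 it passed as higher in the knockout (log2 fold change 0.52, edgeR adjusted p = 0.0318, over 4 leave-out fits 0.0318 to 0.977). The proton-coupled carrier Slc36a1, found on lysosomes, measured 29.9 and 30.5 CPM in knockout and 27.5 and 25.7 CPM in wild type. Slc36a4 measured 11.9 and 13.5 CPM in knockout and 12.9 and 14.4 CPM in wild type. Neither SLC36 gene passed.

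Of the SLC6 genes, Slc6a15 rose and Slc6a9 fell. Slc6a15, a carrier of branched-chain amino acids and proline known from the brain, measured 6.56 and 6.44 CPM in knockout and 2.28 and 2.93 CPM in wild type, a 2.50-fold higher level (log2 fold change 1.32, SE 0.19, edgeR adjusted p = 0.0127). Slc6a9, the glycine carrier GlyT1, measured 69.9 and 72.0 CPM in knockout and 100.4 and 112 CPM in wild type, a 1.499-fold lower level (log2 fold change -0.58, SE 0.081, edgeR adjusted p = 0.0121).

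The abundant SLC6 genes outside amino acid transport in the strict sense did not pass. Slc6a8, the creatine carrier, measured 266 and 245 CPM in knockout and 224 and 197 CPM in wild type, with both knockout libraries above (edgeR adjusted p = 0.104). Slc6a6, the taurine carrier, measured 92.7 and 90.6 CPM in knockout and 120 and 97.3 CPM in wild type. Slc6a12, the betaine and GABA carrier, measured 24.7 and 22.9 CPM in knockout and 40.01 and 28.6 CPM in wild type (edgeR adjusted p = 0.0884). For Slc6a6 and Slc6a12 the knockout libraries were the lower ones, and wild type replicate 1 stood above wild type replicate 2.

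Slc6a17, a carrier of synaptic vesicles, measured 27.7 and 34.3 CPM in knockout and 34.3 and 41.6 CPM in wild type. Slc6a18, a kidney carrier of neutral amino acids, measured 2.96 and 2.76 CPM in knockout and 4.43 and 4.35 CPM in wild type. Slc6a4, the serotonin carrier, was near the limit of detection with 14 and 16 estimated counts in knockout and 17 and 25 in wild type. None of the 3 passed.

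The 22 members left untested had at most 14 estimated counts and 0.18 FPKM in any library. In SLC6 they included the carriers Slc6a2, Slc6a3, Slc6a5, Slc6a7, Slc6a11, Slc6a13, Slc6a14, Slc6a19, Slc6a20a, Slc6a20b and Slc6a21. Slc6a20a and Slc6a20b are close copies, between which the split of reads is uncertain. Those of other families were Slc1a6, Slc7a9, Slc7a10, Slc7a13, Slc7a15, Slc36a2, Slc36a3, Slc38a5, Slc38a8 and Slc38a11. In all, 48 of the 62 genes were listed in every library.

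The number of members called changed with the libraries in the fit. When either wild type library was left out, no member and no gene at all passed in edgeR, where the adjusted p of the 12 called members ran from 0.0936 to 0.143 (replicate 1 left out) and from 0.158 to 0.223 (replicate 2 left out). At an unadjusted p under 0.05, 16 members were lower and 4 higher without wild type replicate 1, and 15 lower and 2 higher without wild type replicate 2. The shares of all genes lower and higher at that p were 12.5% and 11.9% without wild type replicate 1, and 9.75% and 8.56% without wild type replicate 2. DESeq2 called 8 members lower without wild type replicate 1, all among the 11, where 3.22% of all genes were lower, and 7 without wild type replicate 2, of which 6 were among the 11, where 2.59% were. Without knockout replicate 1 edgeR called 10 lower, all among the 11, with Slc7a5 lost, where 4.77% of all genes were lower, and 2 higher, Slc43a3 and Slc6a15. Without knockout replicate 2 it called 15 lower, the 11 with Slc1a2, Slc1a5, Slc7a2 and Slc7a3, where 5.85% of all genes were lower. DESeq2 called 9 lower without knockout replicate 1, where 3.36% of all genes were, and 14 without knockout replicate 2, where 4.69% were. With all 4 libraries Slc6a15 passed in DESeq2 (adjusted p = 0.000115), whereas among the leave-out fits it passed there only without wild type replicate 2. Its log2 fold change in DESeq2 was 1.31 and 1.34 without knockout replicates 1 and 2, and 1.15 and 1.52 without wild type replicates 1 and 2. The 1 member DESeq2 called higher without knockout replicate 1 was Slc43a3. A group left with 1 library is assumed in these fits to vary like the other. For the 12 called members the log2 fold change kept its sign in each of the fits made. Their groups did not overlap, so leaving out a library could hardly have reversed it, and the kept sign adds no support.

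**Figure D4:**
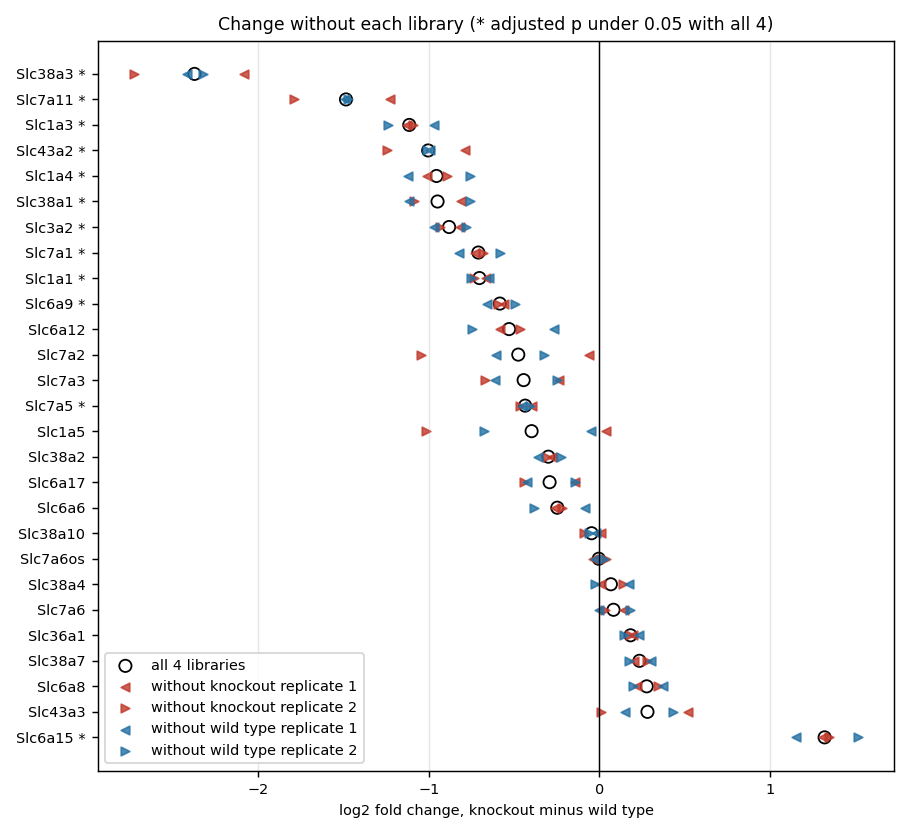
Log2 fold change, knockout minus wild type, of the members averaging at least 20 CPM and the called members, with all 4 libraries (circles) and without each library (triangles, red for a knockout and blue for a wild type library left out). Slc7a2 and Slc1a5 move by about 1 unit between the fits without either knockout library, where the triangles of Slc3a2 and Slc7a5 stay close to their circles.

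The authors' deposited table is a DESeq2 comparison of knockout and control from this series, whose headers name the groups and no libraries. Of the 62 genes 12 were lower there and 1 was higher at an adjusted p under 0.05. Over all 17529 genes in that table the shares were 5.19% and 3.33%. All 12 members called by edgeR were past that threshold there. In the authors' deposited table the log2 fold change was -2.23 for Slc38a3, -1.45 for Slc7a11 and 1.23 for Slc6a15. The further gene past the threshold in the authors' deposited table was Slc38a2, with -0.29 and an adjusted p of 0.0239.

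Promoter sequences are shown for Slc7a11, Slc1a4 and Slc7a1, called genes whose annotated promoter held a searched motif. RefSeq promoters of GRCm38.p6, from 250 bases before to 50 after each annotated start, were held for 45 of the 62 genes and for 8 of the 12 called members. The motifs searched, on both strands, were TGATGNAA, the core of the element bound by ATF4 with C/EBP factors, and TGACNNNGC, the core of the antioxidant response element bound by NRF2. Letters are lower case with the motif matches in capitals, 5′ to 3′ on the strand of the gene, which is the minus strand for all 3. The deposited values rest on mm9, and these sequences were matched by gene number.
Slc7a11, chr3:50443564-50443863, capitals mark TGATGNAA: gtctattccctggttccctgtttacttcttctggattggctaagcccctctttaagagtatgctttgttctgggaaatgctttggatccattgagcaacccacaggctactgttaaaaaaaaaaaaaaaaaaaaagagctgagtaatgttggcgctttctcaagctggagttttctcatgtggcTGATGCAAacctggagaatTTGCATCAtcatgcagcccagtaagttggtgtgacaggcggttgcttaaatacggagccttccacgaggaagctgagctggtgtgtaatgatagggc
Slc1a4, chr11:20332664-20332963, capitals mark TGATGNAA: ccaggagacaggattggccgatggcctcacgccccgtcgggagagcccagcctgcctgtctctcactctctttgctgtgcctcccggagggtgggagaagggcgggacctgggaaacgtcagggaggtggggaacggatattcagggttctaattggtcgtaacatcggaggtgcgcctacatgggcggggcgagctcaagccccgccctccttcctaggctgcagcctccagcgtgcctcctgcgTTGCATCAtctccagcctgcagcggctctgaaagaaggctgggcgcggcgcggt
Slc7a1, chr5:148399855-148400154, 1 of 2 annotated promoters, capitals mark TGACNNNGC: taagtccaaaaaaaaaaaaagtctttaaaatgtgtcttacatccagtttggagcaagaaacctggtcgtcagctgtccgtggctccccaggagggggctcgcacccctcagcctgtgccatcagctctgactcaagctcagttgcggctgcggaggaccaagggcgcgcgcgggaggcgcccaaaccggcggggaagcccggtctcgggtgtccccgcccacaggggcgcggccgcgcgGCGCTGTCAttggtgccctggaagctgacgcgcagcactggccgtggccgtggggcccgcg

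Slc7a11 held TGATGNAA in both orientations, with first bases at -66 and -47 from the start, and Slc1a4 held it once, at -4. These matches stood in 2 of the 8 called genes with a promoter sequence, and over all genes in 1219 of 27025, or 4.51%. Among members that did not pass or were not tested TGATGNAA was also in promoters of Slc7a7 and Slc6a21, which makes 4 of the 45 members with a promoter sequence. TGACNNNGC was in promoters of 8 of the 45 members, of which Slc7a1 and Slc6a9 were called, and over all genes in 3781 of 27025. Per promoter the shares were 3.97% for TGATGNAA and 12.4% for TGACNNNGC, of 32851. Slc3a2, Slc1a1, Slc1a3 and Slc43a2 held neither motif in these windows. A match is a string of letters and not a measured binding site.

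Other genes of amino acid handling were counted in the same fit. Of 19 tested regulators and targets of the amino acid response 13 fell, 0 rose and 6 did not pass, with a median log2 fold change of -0.48 beside 0.0044 over all tested genes, of which 5.63% fell and 3.62% rose. Atf4 itself measured 442 ± 8.6 CPM in knockout and 652 ± 57 CPM in wild type (SD, n = 2 each, edgeR adjusted p = 0.0151). Trib3, a target and inhibitor of ATF4, was 2.59-fold lower, Nupr1, a stress-induced chromatin protein gene, 1.91-fold, Ppp1r15a, which restores translation after stress, 1.75-fold and Sesn2, a leucine sensor, 1.59-fold. Of the 9 transporters listed here as dependent on ATF4, 6 fell, Slc3a2, Slc7a11, Slc1a4, Slc7a1, Slc6a9 and Slc7a5. The other 3, Slc1a5, Slc7a3 and Slc38a2, did not pass. These 9 are already among the 40 tested members, of which 27.5% fell, and the list was drawn up with earlier results known.

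Most tested genes of glutathione and cystine redox fell. Of 12 tested members 7 fell, 0 rose and 5 did not pass, with a median log2 fold change of -0.44. Over all tested genes 5.63% fell and 3.62% rose, with a median of 0.0044. Chac1, among the 7, is also among the 13 genes of the amino acid response that fell. Hmox1, which breaks down haem, measured 724 ± 62 CPM in knockout and 1489 ± 22 CPM in wild type (SD, n = 2 each, edgeR adjusted p = 0.00269). Gclm and Gclc, the subunits of the first enzyme of glutathione synthesis, were 1.49-fold and 1.31-fold lower, Srxn1 1.59-fold and Txnrd1 1.47-fold. Nqo1, another NRF2 target, measured 319 CPM in knockout and 231 CPM in wild type without passing (edgeR adjusted p = 0.055).

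The remaining lists are read against the same shares over all tested genes, 5.63% lower and 3.62% higher. Of 14 tested genes of serine, glycine, asparagine and proline synthesis 2 fell, Mthfd2 and Gpt2, 0 rose and 12 did not pass (median -0.10). Asns, the asparagine synthetase and an ATF4 target, measured 203 CPM in knockout and 245 CPM in wild type (edgeR adjusted p = 0.211). Of 14 genes of glutamine and glutamate metabolism 1 fell, Gpt2, and 0 rose (median -0.06). Of 31 genes of amino acid sensing by mTORC1 1 rose, Lamtor5, and 1 fell, Sesn2 (median 0.02). Of 17 tested amino acid transporters of other SLC families 1 rose, the mitochondrial aspartate and glutamate carrier Slc25a13, at 1.42-fold, and 0 fell (median -0.09). Whether these lists differ from the transporters was not tested. The list counts rest on all 4 libraries, since no gene passed in edgeR without either wild type library.

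**Figure D5:**
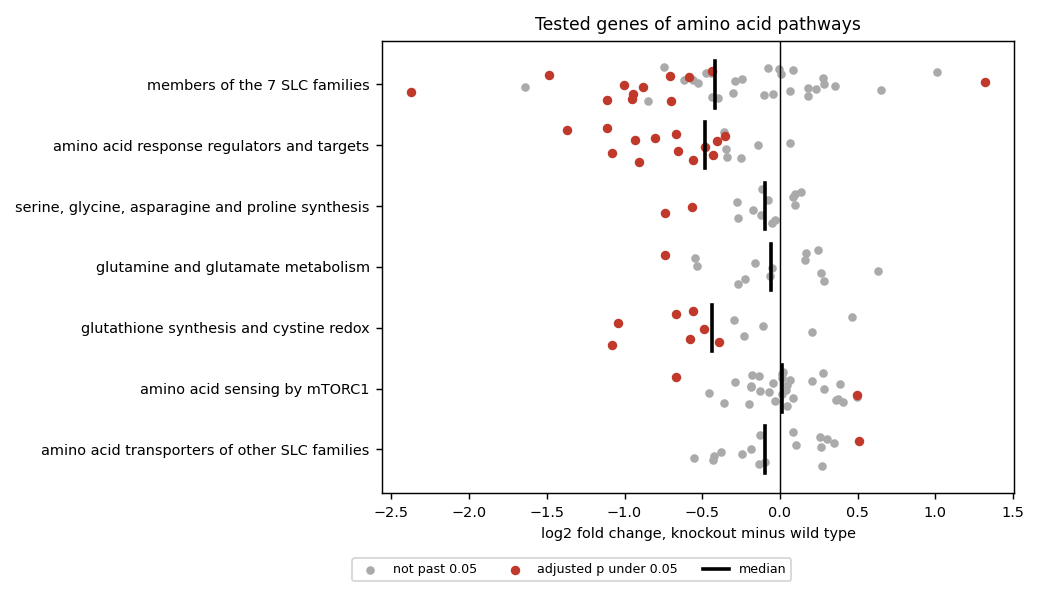
Log2 fold changes, knockout minus wild type, of the tested members of the 7 SLC families and of the tested genes of 6 amino acid pathways. Each point is a gene, red where the adjusted p was under 0.05, and black bars are medians, which lie lowest for the amino acid response, the glutathione list and the transporters.

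Among the 12 called members, 5 overlap another annotated gene in RefSeq, Slc6a9 with Ccdc24 and Slc1a1, Slc6a15, Slc38a1 and Slc43a2 with non-coding genes or a pseudogene. No source used here says whether reads were counted by strand, and reads of overlapping genes therefore cannot be told apart.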

How the data were processed

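Expected counts and FPKM of 4 libraries, 2 knockout and 2 wild type, were used as the authors deposited them, per the file headers. Bowtie2 2.2.5 and mm9 were used upstream, per the submitters' processing notes. The counting tool, annotation release and strandedness were not given in the sources used here. A DESeq2 table was also deposited, per the file headers and file name, with a normalized signal per group, log2 fold changes and p-values. That signal is not a plain mean of counts, since Slc1a6, with 0 counts in both wild type libraries, stands there at 0.7 for wild type. A gene not listed in a library was taken as 0. Entries named by a transcript held at most 0.0305% of counts and were kept apart.

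Expected counts were rounded to whole numbers for edgeR 4.0.16 under R 4.3.3 (TMM, filterByExpr, quasi-likelihood F tests, Benjamini-Hochberg over 13773 genes, threshold 0.05). CPM are TMM-scaled. An SE is the absolute log2 fold change divided by the root of its F value. Replicates differed by more than counting noise (chi-square per gene 20.8 in knockout and 19.0 in wild type), so each was kept. The scripts were tested on simulated data. The alternatives were DESeq2 1.42.0, limma 3.58.1 on log2(FPKM + 1) and log2(FPKM + 0.1) with a mean FPKM of at least 0.5, other scalings and filters, a replicate block, summed transcript entries and leaving out each library. DESeq2 without each library was added after seeing the data.

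Every member is in the counts, and items withheld for evaluation are not reported here. Values are given in each library for members past 0.05, for Slc7a11, Slc38a3 and Slc3a2, and for those averaging at least 20 CPM, with other tested members added, and up to 4 called genes a list are named, smallest p first. The named markers and Trib3, Gclc, Nqo1 and Asns lie outside that rule and were picked with values known. The members and lists were chosen with earlier results of these data known. Gene numbers were matched to RefSeq GRCm38.p6 for all 62 members.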

Additional observations from a re-analysis of the deposited data

How the results depend on the processing

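The 11 lower and 1 higher members kept these counts with upper-quartile scaling, library size only, no filter, a mean count of at least 10, summed transcript entries and limma on both FPKM scales, and DESeq2 called 13 and 1. Without any filter 720 genes in all were called, against 1274. The replicate numbers of the titles are not said to pair the libraries, and deviations from the group means correlated at 0.107 between same-numbered libraries. With the replicate number as a block edgeR called 18 members lower and 3 higher. It called 2316 genes in all, against 1274, so calls rose over all genes too. The genes in all were not split by direction there. The median log2 fold change of the members was -0.26 on log2(FPKM + 1), where the added constant shrinks the change of low genes.

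Without each library in turn edgeR called 0 to 15 members lower, 0 to 2 higher and 0 to 1275 genes in all, with medians of -0.46 to -0.22. DESeq2 called 634 and 783 genes without knockout replicates 1 and 2 and 544 and 417 without wild type replicates 1 and 2, with 7 to 14 members lower and 0 to 1 higher, that 1 being Slc43a3 without knockout replicate 1 and Slc6a15 without wild type replicate 2. Its medians were -0.23 and -0.46 without the knockout replicates and -0.33 and -0.2877 without the wild type replicates. The cause of the loss of all edgeR calls without a wild type library was not tested.

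Sign changes touched only members that did not pass in those settings. In edgeR without each library the log2 fold change ran from -1.0165 to 0.0408 for Slc1a5, -0.2915 to 0.1735 for Slc7a7, -0.0857 to 0.1146 for Slc7a14, -0.0003 to 0.1774 for Slc7a6, -0.0357 to 0.0393 for Slc7a6os, -0.0239 to 0.1728 for Slc38a4 and -0.093 to 0.0108 for Slc38a10. In DESeq2 it was 0.0367 for Slc1a5 and 0.0066 for Slc38a10 without knockout replicate 1, 0.1717 for Slc7a7 and -0.0261 for Slc38a4 without wild type replicate 2, -0.0625 and -0.0826 for Slc7a14 without knockout or wild type replicate 1, and 0.0389 and 0.0224 for Slc7a6os without knockout or wild type replicate 2. With limma on log2(FPKM + 1) and log2(FPKM + 0.1) Slc7a7 was at 0.0111 and 0.0193 and Slc7a6os at 0.0307 and 0.0317. Slc7a6os was at 0.0069 with upper-quartile scaling, 0.0329 with library size only and 0.005 without a filter. The 22 members left untested were too low at this depth for any comparison.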
